A study of Mus musculus with 9 samples.

Results

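The genes described here encode the mouse deubiquitinases of the ubiquitin-specific protease (USP), ovarian tumour (OTU) and ubiquitin C-terminal hydrolase (UCH) families together with Cyld, measured as RNA in regulatory T (Treg) cells that lack Usp21 or both Usp22 and Usp21. They were taken by gene symbol. Usp genes were those named Usp plus a number, with or without a final x. Usp symbols with other endings were left out, as were Usp22 and its relatives Usp27x and Usp51. Every numbered Otud gene, Otub1, Otub2, the Uchl genes and Cyld were also taken. This gave 61 of the 54232 genes in the count table, made up of 46 USP genes, 10 OTU genes, 4 UCH genes and Cyld. Usp22, the deubiquitinase of the SAGA coactivator complex, is itself deleted in the dKO and is given only as a check of the labels.

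Naive natural Treg cells were sorted from mouse spleen by YFP, which reports Foxp3, their lineage-defining transcription factor, and their RNA was sequenced. The 9 libraries comprised 3 labelled with a Treg knockout of Usp21 and Usp22 together (dKO), 3 labelled with a Treg knockout of Usp21 alone (Usp21 KO) and 3 wild-type (WT) libraries, each titled as a separate biological sample. All groups carry the Foxp3 reporter by which the cells were sorted, and the labels list no treatment. The labels used here give no strain, age, litter, Cre driver or deleted exon, and no group lacks Usp22 alone, so loss of Usp22 and differences between the dKO and Usp21 KO lines cannot be told apart.

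Deubiquitinases cut ubiquitin off proteins and take ubiquitin chains apart, and so reverse the work of the ubiquitin ligases that mark proteins for the proteasome or change their function. The USP, OTU and UCH families and Cyld are classed as cysteine proteases that differ in fold, in preferred chain types and in place in the cell. Whether each member is active on ubiquitin was not measured here. In Treg cells, Usp7, Usp21 and Usp44 have been described as removing ubiquitin from Foxp3, and Cyld as restraining NF-kB signalling. The comparisons below ask whether the RNA of other deubiquitinases is higher where Usp21, or Usp21 and Usp22, have been lost.

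A library held 18067377 to 40334577 counted reads. Enough reads to be tested were found for 14994 genes, among them 52 of the 61 deubiquitinase genes. Levels are CPM, counts scaled to library size. Log2 fold changes carry ± SE, taken like the p-values from the quasi-likelihood test of edgeR. These p-values are Benjamini-Hochberg adjusted over all 14994 genes, and a gene passed below 0.05. Usp22 had 28.7, 25.8 and 21.6 CPM in dKO, 82.1, 64.8 and 74.4 in Usp21 KO and 71.0, 72.8 and 69.4 in WT. The 7 Treg defining markers were present in every library but lower in dKO, with summed levels of 3311 to 3582 CPM in dKO, 4062 to 4394 CPM in Usp21 KO and 4049 to 4211 CPM in WT libraries. In dKO against WT 2 of the 7, Foxp3 and Tnfrsf18, passed as lower, and 5 had dKO libraries below all WT libraries. Foxp3 had 328, 372 and 299.8 CPM in dKO, 827, 693 and 669 in Usp21 KO and 668, 689 and 622 in WT. Other marker sets also differed with genotype. Of 24 cell cycle genes, 20 passed as higher in dKO than in WT (summed 1683 to 1847 CPM in dKO, 1123 to 1679 CPM in Usp21 KO and 902 to 1077 CPM in WT libraries). Of 12 tested myeloid marker genes, 3 passed as higher in dKO than in WT (summed 349.6 to 854 CPM in dKO, 84.5 to 247 CPM in Usp21 KO and 85.7 to 263 CPM in WT libraries). The same held for 2 of 8 CD8 T and NK cell markers (summed 74.5 to 77.6 CPM in dKO, 36.3 to 50.5 CPM in Usp21 KO and 46.5 to 56.0 CPM in WT libraries). It held for 2 of 5 tested erythroid and platelet markers (summed 23.5 to 43.6 CPM in dKO, 17.1 to 35.1 CPM in Usp21 KO and 12.7 to 16.6 CPM in WT libraries). Of 8 B cell markers 0 passed against WT (summed 61.4 to 69.5 CPM in dKO, 37.0 to 55.7 CPM in Usp21 KO and 33.5 to 62.8 CPM in WT libraries). None of these lists had a marker symbol at 0 in every library of a group. The part of these cells, of Treg marker loss and of cell cycling in any result below was not tested. In sorted populations, a lower level can come from fewer cells of a type or from less RNA per cell, which cannot be told apart. The p-values rest on the spread between these samples, estimated over all 9 libraries and shared across genes. Libraries outside a comparison therefore also enter its p-values.

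Spleen Treg cells had RNA of most of this enzyme class, mostly at CPM above that of the median tested gene. CPM is not scaled for gene length, and a level per kb was not computed over all tested genes. Whether these genes also stand above the typical gene per kb is therefore not shown. The median of the mean level was 68.6 CPM over the 52 tested deubiquitinase genes and 18.7 CPM over all tested genes, and 43 of the 52 lay above that all-gene median. Scaled to exon length to set genes roughly side by side, levels ran from 0.316 to 50.9 CPM per kb with a median of 9.40. Exon length is the union of all annotated exons of a gene. Which transcripts these cells express was not determined, so the ranking is approximate. Usp19, which is anchored in the endoplasmic reticulum, had the highest level at 50.9 ± 3.08 CPM per kb (SD, n = 9 libraries). Otud5, an OTU enzyme that acts on TRAF3, followed at 47.6 ± 4.20 CPM per kb and Usp25, which acts on TRAF proteins in innate and cytokine signalling, at 47.5 ± 2.00 CPM per kb. These SDs pool dKO, Usp21 KO and WT libraries and so include differences between the groups. In WT alone, Usp19 had 51.9 ± 2.05, Otud5 50.3 ± 3.64 and Usp25 47.4 ± 0.739 CPM per kb (SD, n = 3). There the difference between Usp19 and Otud5 was within their spread. Usp7, the deubiquitinase of MDM2 and p53, had 42.0 ± 3.83 CPM per kb, and Otub1, an OTU enzyme that also blocks the ubiquitin-conjugating enzyme Ubc13 without catalysis, had 33.3 ± 1.34 CPM per kb. Usp5 stood close to Otub1 at 33.1 ± 2.60 CPM per kb. In WT, Usp21 had 13.3 ± 0.571 CPM per kb and Usp3 had 27.6 ± 1.70 CPM per kb (SD, n = 3).

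The lowest levels among tested genes belonged to Uchl4 (0.316 ± 0.155 CPM per kb), Usp2 (0.497 ± 0.141), Usp49 (0.627 ± 0.103), Usp46 (1.38 ± 0.106) and Usp54 (1.67 ± 0.181, all SD, n = 9). Uchl4 is a near copy of Uchl3 and may hold its reads, and 52.3% of the exon bases of Usp49 are shared with other annotated genes, so both values are uncertain. The 9 genes with too few reads to test were Usp13, Usp26 and Usp43, each with 0 reads in all 9 libraries, Usp29 with 1 read, Otud7a with 4, Otud6a with 5, Usp44 with 10, Usp50 with 26 and Uchl1 with 28. A count of 0 among the 249767369 reads of all libraries allows a level of up to 0.0120 CPM, by counting error only. Usp44, one of the enzymes described as acting on Foxp3, was therefore barely measured in these cells, as was Uchl1, the UCH enzyme typical of neurons.

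**Figure D1:**
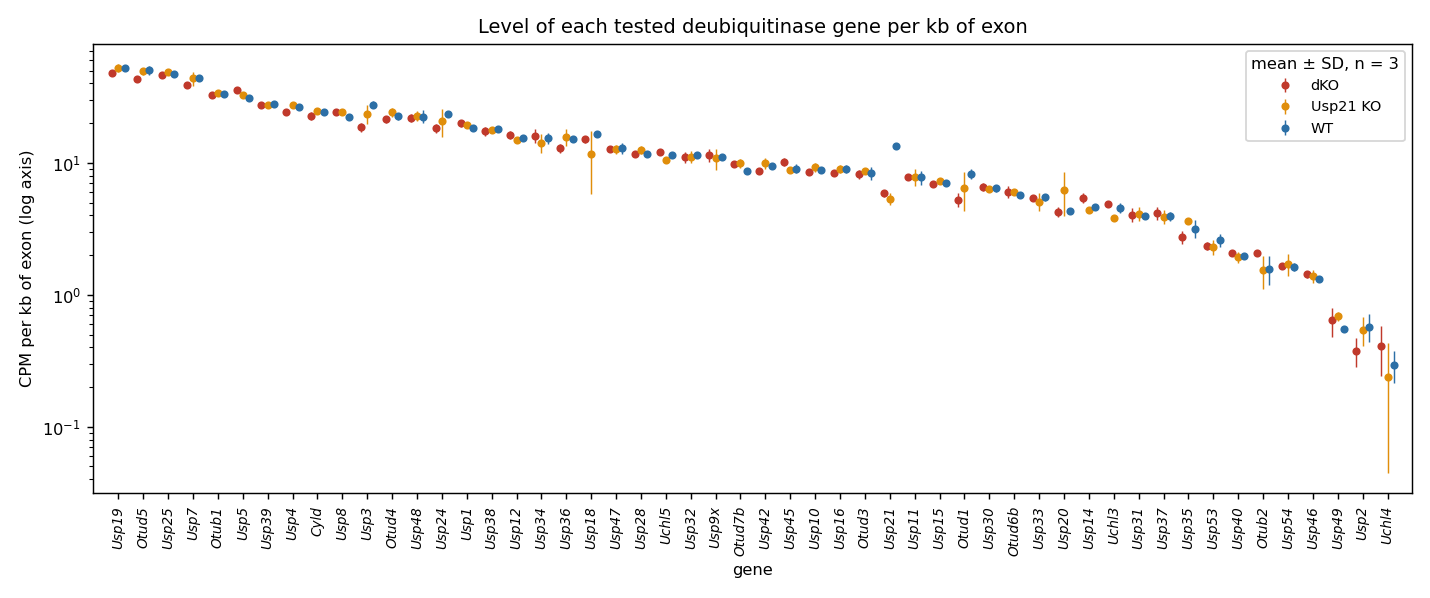
Mean level of each of the 52 tested deubiquitinase genes in CPM per kb of exon on a log axis, with SD over 3 libraries, in dKO, Usp21 KO and WT. The genes run in order of their mean over all 9 libraries from Usp19 at 50.9 to Uchl4 at 0.316 CPM per kb, and the Usp21 points of dKO and Usp21 KO lie below that of WT.

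Usp21, which removes ubiquitin from histone H2A and from Foxp3, was the sole deubiquitinase gene to pass in Usp21 KO against WT, and it fell. Usp21 (ENSMUSG00000053483, mm10 chromosome 1, 171281945 to 171287991) had 29.1, 28.5 and 26.1 CPM in dKO, 28.1, 23.1 and 24.97 in Usp21 KO and 66.2, 63.0 and 60.8 in WT. All dKO and Usp21 KO libraries lay below all WT libraries, while dKO and Usp21 KO overlapped. The dKO level was 44.1% of WT (log2 fold change -1.18 ± 0.09, adjusted p = 0.000197), and the Usp21 KO level 40.1% of WT, with a log2 fold change of -1.31 ± 0.09 and an adjusted p of 0.000371. Both comparisons use the same 3 WT libraries. Between dKO and Usp21 KO the difference did not pass (log2 fold change 0.13 ± 0.09, adjusted p = 0.400). The labels do not name the deleted exon, and where in the gene the remaining reads lie was not tested.

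Usp3, the other deubiquitinase of histones H2A and H2B that passed, was lower in dKO than in WT. The RefSeq promoter windows of both genes (GRCm38.p6, 250 bases before to 50 after the start) are shown because these are the genes of the family whose RNA passed as lower against WT. Usp21 lies on the minus strand of chromosome 1 with its window at chr1:171287912-171288211, and Usp3 on the minus strand of chromosome 9 with its window at chr9:66593066-66593365. Capitals mark GGGCGG or its reverse complement CCGCCC, the GC box.
Usp21: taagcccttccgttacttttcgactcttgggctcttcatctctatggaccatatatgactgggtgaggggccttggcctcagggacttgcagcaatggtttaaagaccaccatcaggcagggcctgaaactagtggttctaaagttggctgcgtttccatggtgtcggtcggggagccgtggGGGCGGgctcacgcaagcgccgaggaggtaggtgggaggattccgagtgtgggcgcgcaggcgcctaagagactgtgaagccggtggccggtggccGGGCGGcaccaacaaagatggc
Usp3: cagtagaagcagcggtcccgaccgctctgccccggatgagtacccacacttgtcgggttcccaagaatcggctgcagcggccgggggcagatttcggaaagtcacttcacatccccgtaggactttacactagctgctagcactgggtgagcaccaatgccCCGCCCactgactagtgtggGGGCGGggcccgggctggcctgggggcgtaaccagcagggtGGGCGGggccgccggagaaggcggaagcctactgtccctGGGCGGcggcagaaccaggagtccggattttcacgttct
The Usp21 window holds 2 GC boxes and 18 CpG pairs at 59.7% G and C, and the Usp3 window 4 GC boxes and 22 CpG pairs at 65.0%. Windows were found for 41 of the 52 tested genes, 44 windows in all. A GC box on either strand occurred in 68.2% of them, against 35.7% of the 32851 windows of all genes. CCGGAAG, the ETS-type motif, occurred in 20.5% of the deubiquitinase windows against 8.9% of all windows. CCAAT occurred in 27.3% against 37.4%, and TATAAA in 4.5% against 13.6%. Usp3 holds 1 CCAAT and neither gene holds TATAAA or CCGGAAG. None of these motifs overlapped another in the 2 windows printed. The median window of the deubiquitinase genes held 27.5 CpG pairs at 64.5% G and C, against 7 CpG pairs at 52.7% over all windows. The windows of all genes were not limited to tested genes, nor matched for RNA level or CpG content. These contrasts are therefore not read as particular to deubiquitinase genes. The matches describe the sequence and were not tested against the RNA levels.

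No other deubiquitinase gene passed in Usp21 KO against WT. In Usp21 KO against WT, 0 of the 52 tested genes passed as higher and 1, Usp21, as lower, while 0.0133% of all tested genes passed in either direction, 0.00667% in each. At an unadjusted p below 0.05, 2 of the 52 were higher and 2 lower. Of all tested genes 10.6% had such a p, 6.3% higher and 4.35% lower. Without Usp21, the median log2 fold change of the other 51 was 0.00, against 0.01 over all tested genes. Their median size of change regardless of sign was 0.06 against 0.14. These sizes were not matched for level, which was higher in the tested deubiquitinase genes (median 68.6 CPM against 18.7 CPM over all tested genes). Libraries of the groups did not overlap for 4 genes that were above WT and 6 that were below, against 8.06% and 8% of all tested genes, 16.1% together. Both counts are near that background. A rise of 1.5-fold lay outside the 95% interval of 48 of the 51 genes, intervals that are not adjusted for their number. The exceptions were Uchl4, Usp20 and Usp49.

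The genes with the smallest p after Usp21 were Uchl3, Otud7b, Usp20, Usp8 and Usp3. Uchl3, which frees ubiquitin and NEDD8 from small C-terminal adducts, had 19.2, 17.9 and 18.6 CPM in dKO, 15.0, 14.2 and 14.4 in Usp21 KO and 17.3, 19.0 and 16.2 in WT. Every Usp21 KO library lay below every WT library, without passing (log2 fold change -0.27 ± 0.10, adjusted p = 0.358). Otud7b, known as Cezanne, takes apart K11-linked chains and restrains non-canonical NF-kB signalling. It had 85.4, 90.4 and 93.0 CPM in dKO, 84.3, 99.6 and 89.3 in Usp21 KO and 80.4, 81.4 and 77.6 in WT. Usp21 KO lay above WT throughout (log2 fold change 0.19 ± 0.07, adjusted p = 0.391), as did dKO (log2 fold change 0.17 ± 0.07, adjusted p = 0.204), and neither difference passed. Usp8, the endosomal enzyme that sorts receptors with the ESCRT machinery, had 98.05, 102 and 107 CPM in dKO, 96.9, 104 and 104 in Usp21 KO and 91.7, 95.5 and 91.6 in WT. All 3 Usp21 KO and all 3 dKO libraries were above WT, again without passing (log2 fold change 0.13 ± 0.06, adjusted p = 0.483 for Usp21 KO, log2 fold change 0.14 ± 0.06, adjusted p = 0.212 for dKO). Usp20, which is closely related to Usp33, had 38.7, 41.6 and 34.7 CPM in dKO, 51.3, 79.1 and 38.8 in Usp21 KO and 38.0, 39.3 and 39.1 in WT. The second Usp21 KO library was high, while the third lay within WT (log2 fold change 0.54 ± 0.22, adjusted p = 0.431).

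**Figure D2:**
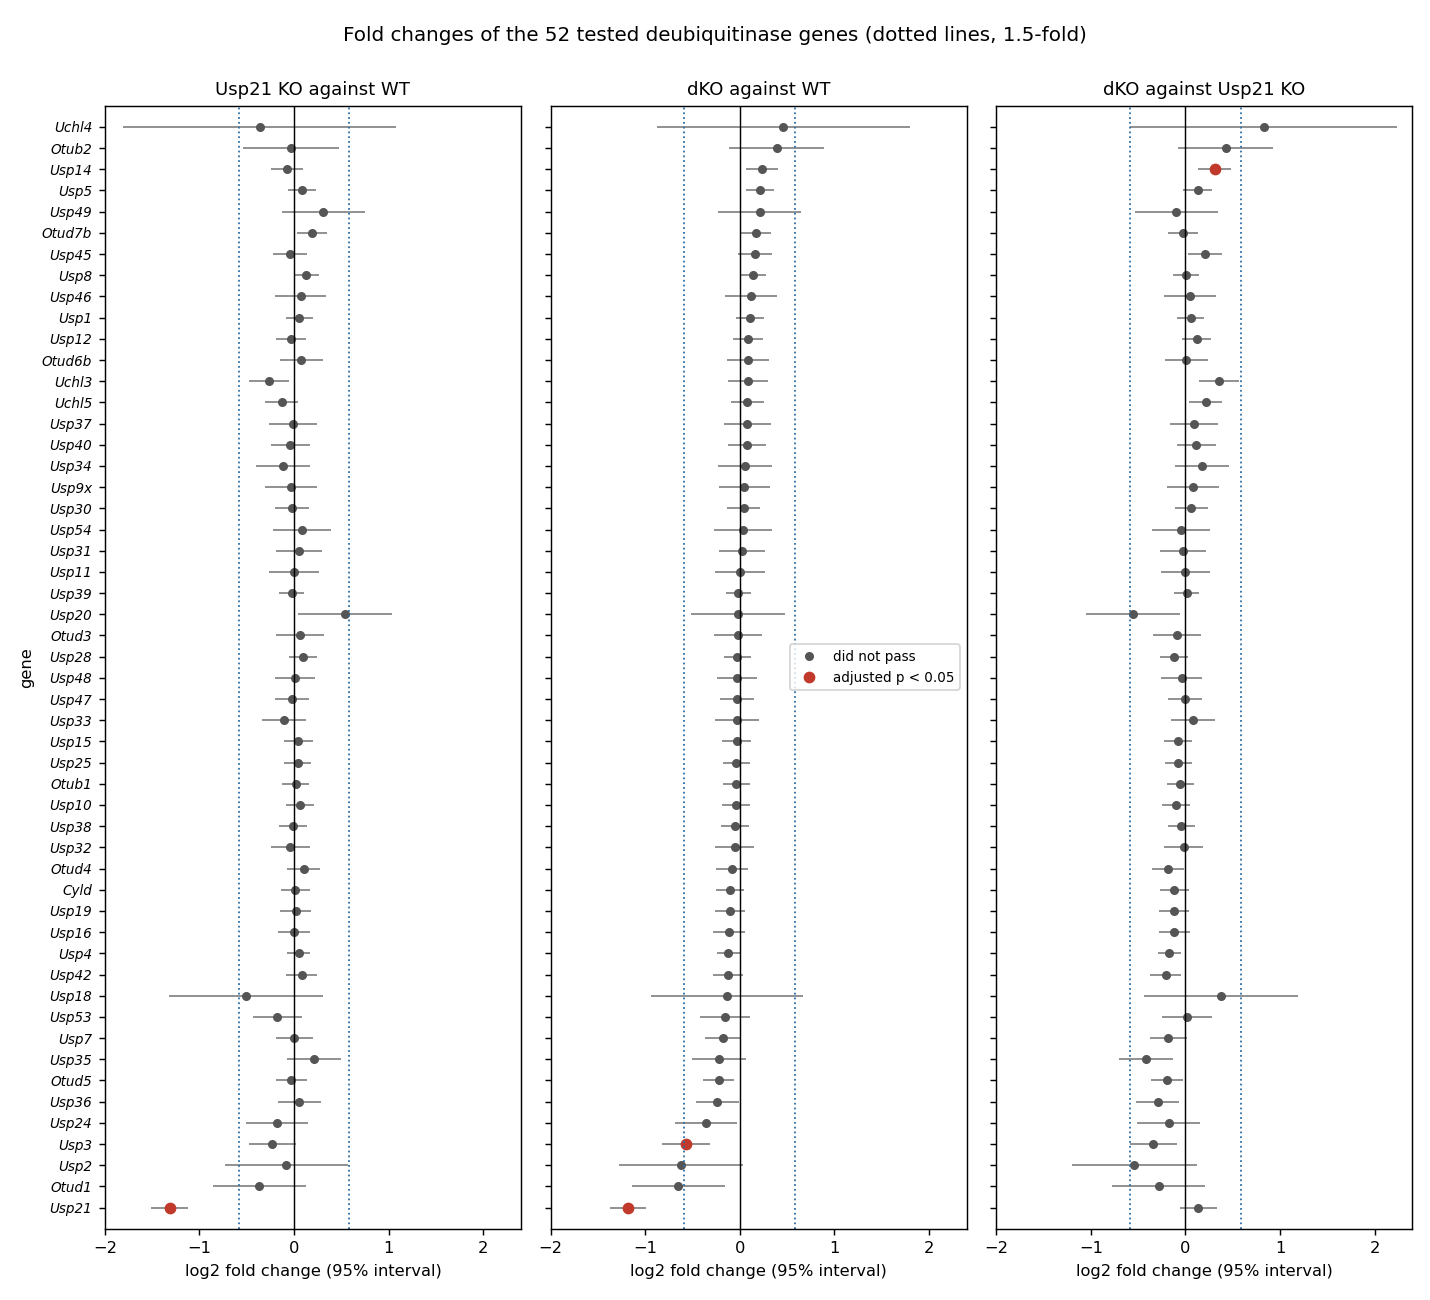
Log2 fold change with its 95% interval for the 52 tested deubiquitinase genes, 1 gene per row, for Usp21 KO against WT (left), dKO against WT (middle) and dKO against Usp21 KO (right), with dotted lines at 1.5-fold in either direction. Red points passed at an adjusted p below 0.05, namely Usp21 in the first panel, Usp21 and Usp3 in the second and Usp14 in the third.

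With both enzymes lost, Usp3 was the sole deubiquitinase gene other than Usp21 to pass against WT. Usp3 (ENSMUSG00000032376, mm10 chromosome 9, 66514637 to 66593142) had 129, 117 and 137 CPM in dKO, 183, 132 and 169.6 in Usp21 KO and 179.5, 202 and 186 in WT. All dKO libraries were below all WT libraries, and the second Usp21 KO library lay among the dKO values. The level in dKO was 67.4% of WT (log2 fold change -0.57 ± 0.11, adjusted p = 0.0188, 95% interval -0.82 to -0.32). In Usp21 KO against WT (log2 fold change -0.23 ± 0.11, adjusted p = 0.507) and in dKO against Usp21 KO (log2 fold change -0.34 ± 0.11, adjusted p = 0.106) the difference did not pass. The dKO against WT call was lost when any 1 of the 6 dKO and WT libraries was left out, with log2 fold changes of -0.62 to -0.51 and adjusted p of 0.0570 to 0.0803. Those fits called 1.24% to 2.51% of all tested genes. The call held in the other 10 of 16 alternatives. Its adjusted p was 0.000259 in the edgeR fit of the 6 dKO and WT libraries alone. It was 0.000147 in edgeR without the second Usp21 KO library, a fit chosen after seeing the data. These alternatives called 15.7% and 15.1% of all tested genes. The Treg, cell cycle and other-cell markers given above also differ between dKO and WT, and their part in the lower Usp3 was not tested.

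Across the family, dKO against WT gave 0 of 52 genes higher and 2 lower (3.85%), against 5.78% of all tested genes, of which 3.01% were higher and 2.77% lower. Usp21, whose deletion defines the groups, is 1 of these 2, and without it 1 of 51 passed (1.96%). With counts this small, the share is not read as a difference from the background. At an unadjusted p below 0.05, 4 were higher and 6 lower, against 11.3% and 11.1% of all tested genes, 22.4% together. Libraries did not overlap for 4 genes above WT, which were Usp14, Usp5, Otud7b and Usp8, and for 10 below WT, against 17.6% and 18.4% of all tested genes, 35.9% together. The median log2 fold change of the 51 genes other than Usp21 was -0.02, against -0.01 over all tested genes. Their median size of change was 0.09 against 0.19, again not matched for level. A 1.5-fold rise lay outside the 95% interval of 47 of them, with Otub2, Uchl4, Usp18 and Usp49 as exceptions. Fitted on the 6 libraries of the comparison with the replicate number as a block, the same comparison gave 2 higher (Usp14 and Usp5) and 6 lower (Usp21, Usp3, Otud1, Otud5, Usp24 and Usp36). That fit called 20.1% of all tested genes, against 15.4% of the deubiquitinase genes with Usp21 counted, so the count does not exceed its background. With the block over all 9 libraries it gave 0 higher and 2 lower, with 4.04% of all tested genes called.

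The members below did not pass in dKO against WT. They are given because they have the next smallest p-values in that comparison or passed in the alternative fits above, apart from Usp7, which is given as an enzyme described as acting on Foxp3. Usp5, which takes apart unanchored ubiquitin chains, had 161, 176 and 159 CPM in dKO, 144, 159 and 150.0 in Usp21 KO and 146, 135 and 147 in WT. All dKO libraries were above all WT and Usp21 KO libraries, the nearest Usp21 KO library by a narrow margin (log2 fold change 0.21 ± 0.07, adjusted p = 0.0985 against WT). Otud1, an OTU enzyme that acts on innate immune signalling proteins, had 13.0, 15.1 and 16.8 CPM in dKO, 22.1, 11.3 and 20.97 in Usp21 KO and 22.4, 25.8 and 22.3 in WT. Its dKO and Usp21 KO libraries each lay below WT, and the second Usp21 KO library had the lowest value of all (log2 fold change -0.65 ± 0.22, adjusted p = 0.119 for dKO against WT). Otud5 had 229, 232 and 211 CPM in dKO, 272, 247 and 251 in Usp21 KO and 257, 282 and 246 in WT, with dKO below both other groups (log2 fold change -0.22 ± 0.07, adjusted p = 0.112 against WT). Usp24, a large USP enzyme, had 218, 215 and 245 CPM in dKO, 277, 188 and 301 in Usp21 KO and 294, 297 and 278 in WT, so dKO lay below WT and the second Usp21 KO library lay below both (log2 fold change -0.36 ± 0.15, adjusted p = 0.191 for dKO against WT). Usp7 had 304, 291 and 305 CPM in dKO, 374, 293 and 353 in Usp21 KO and 332, 352 and 334 in WT. Its dKO libraries were below WT but overlapped Usp21 KO (log2 fold change -0.18 ± 0.09, adjusted p = 0.256 against WT). Usp36, a nucleolar enzyme, had 102, 106 and 90.4 CPM in dKO, 140.5, 106 and 119 in Usp21 KO and 121, 110.0 and 120.5 in WT. Its dKO libraries were below WT (log2 fold change -0.24 ± 0.10, adjusted p = 0.205), and the highest dKO library was in effect level with the lowest Usp21 KO library.

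**Figure D3:**
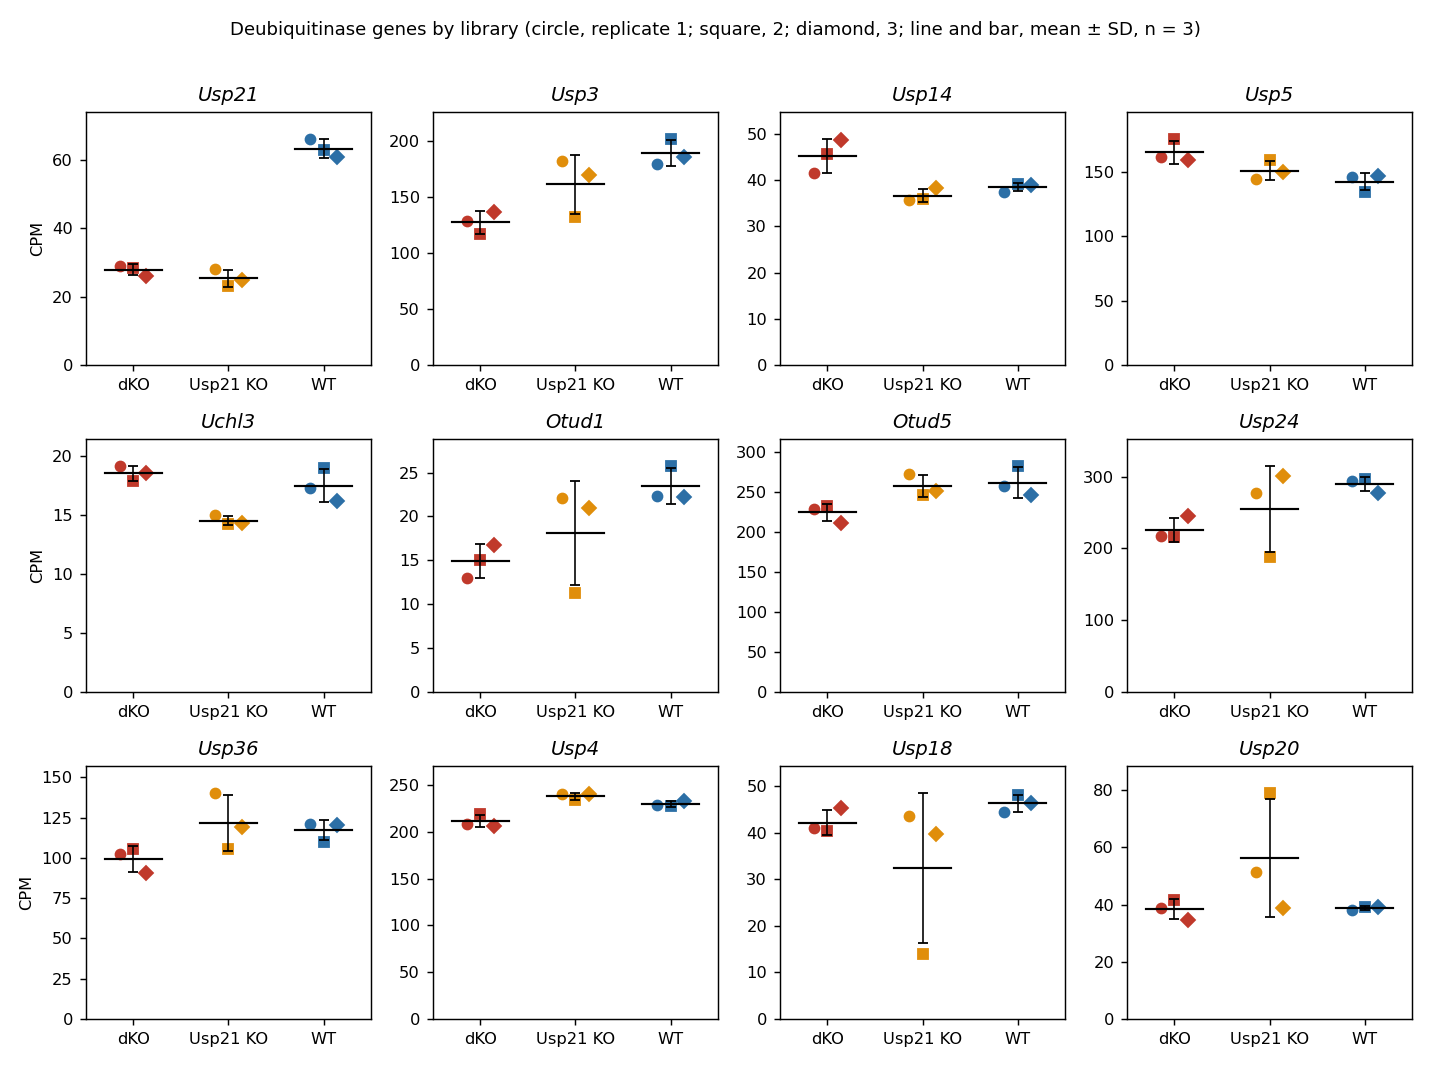
Level in CPM of 12 deubiquitinase genes in each dKO, Usp21 KO and WT library, on axes that start at 0, with marker shape giving the replicate number and lines and bars the mean ± SD of 3 libraries. Usp21 is low in dKO and Usp21 KO alike, Usp3 is lowest in dKO, and the second Usp21 KO library is apart from its group for Otud1, Usp24, Usp18 and Usp20.

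Between dKO and Usp21 KO, the comparison that adds loss of Usp22, a single deubiquitinase gene passed. Usp14 (ENSMUSG00000047879, chromosome 18), which trims chains on proteins held at the proteasome, had 41.5, 45.7 and 48.8 CPM in dKO, 35.8, 35.9 and 38.3 in Usp21 KO and 37.5, 39.2 and 39.0 in WT. All dKO libraries were above all Usp21 KO and WT libraries. The level rose in dKO against Usp21 KO (log2 fold change 0.31 ± 0.08, adjusted p = 0.0497). It did not pass in dKO against WT (log2 fold change 0.23 ± 0.08, adjusted p = 0.109) or in Usp21 KO against WT (log2 fold change -0.08 ± 0.08, adjusted p = 0.761). These comparisons share libraries and are not independent. Of the exon bases of Usp14, 26.0% overlap Thoc1 on the opposite strand, and the strand setting of the counting is not given in the sources used here. Thoc1, a subunit of the mRNA export complex THO, had 52.9, 50.9 and 59.1 CPM in dKO, 54.9, 46.9 and 44.4 in Usp21 KO and 57.7, 50.6 and 50.2 in WT and did not pass (log2 fold change 0.15 ± 0.10, adjusted p = 0.378 for dKO against Usp21 KO). The Usp14 call sat at the threshold and passed in 5 of 15 alternative fits. It was lost with limma voom (adjusted p = 0.0509), with no filter on low counts (adjusted p = 0.0642) and when any library of these groups other than the second Usp21 KO library was left out (adjusted p of 0.0622 to 0.155). Against Usp21 KO, 1 of 24 cell cycle genes, 1 of 12 myeloid, 2 of 8 CD8 T and NK cell and 1 of 8 B cell markers also passed as higher in dKO, with summed levels of each list that did not overlap between these groups. Of the 7 Treg defining markers 1, Foxp3, passed as lower there (log2 fold change -1.13 ± 0.10, adjusted p = 0.000543). The part of these markers was not tested.

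In this comparison 1 of 52 genes passed as higher and 0 as lower (1.92%), against 4.9% of all tested genes, of which 1.7% were higher and 3.2% lower. At an unadjusted p below 0.05, 4 were higher and 8 lower, against 10.7% and 12.9% of all tested genes, 23.6% together. Libraries did not overlap for 6 genes above Usp21 KO and 6 below, against 13.1% and 14.3% of all tested genes, 27.4% together, which is also near the background. The median log2 fold change was -0.02 over the 51 genes other than Usp21 and -0.01 over all tested genes. A 1.5-fold rise lay outside the interval of 48 of them, the exceptions being Otub2, Uchl4 and Usp18. Uchl3 was higher in every dKO library than in every Usp21 KO library without passing (log2 fold change 0.35 ± 0.10, adjusted p = 0.0610). Usp35, a relative of Usp38, had 13.9, 16.2 and 13.3 CPM in dKO, 18.9, 20.1 and 19.1 in Usp21 KO and 16.3, 19.6 and 14.4 in WT, lower in dKO than in Usp21 KO without overlap (log2 fold change -0.42 ± 0.13, adjusted p = 0.0853). Usp4, which acts on TGF-beta receptor and spliceosome proteins, had 209, 219 and 207 CPM in dKO, 241, 234 and 240.2 in Usp21 KO and 229, 228 and 233 in WT, with dKO below both other groups by a small margin (log2 fold change -0.17 ± 0.06, adjusted p = 0.0979 against Usp21 KO).

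Grouped by role, 2 of 8 tested histone deubiquitinases passed as lower in dKO against WT, against 2.77% of all tested genes. They are Usp21, whose deletion defines the groups, and Usp3, so 1 gene beside the deleted one. The list was chosen with results of these data known, and nothing about the group is read from that count. Of the 9 in the table, 8 were tested (Usp3, Usp7, Usp12, Usp16, Usp21, Usp36, Usp46 and Usp49), and the ninth was Usp44. Usp21 fell in Usp21 KO against WT, Usp21 and Usp3 fell in dKO against WT, and 0 passed in dKO against Usp21 KO. Their median log2 fold changes were 0.00, -0.15 and -0.11 in these comparisons, against -0.01 to 0.01 over all tested genes. Summed, they stood at 701 to 740.5 CPM in dKO, 719 to 906 CPM in Usp21 KO and 867 to 906 CPM in WT libraries, so dKO lay below WT and overlapped Usp21 KO. Usp21 is part of these sums. Usp16, the other main H2A deubiquitinase, had 82.0, 75.1 and 79.6 CPM in dKO, 92.8, 82.0 and 81.6 in Usp21 KO and 82.2, 91.7 and 81.9 in WT, which overlapped throughout.

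Of the proteasome-bound enzymes, Usp14 passed as higher in dKO against Usp21 KO, and Uchl5 did not pass in any comparison. Uchl5, held at the proteasome by Adrm1, had 34.0, 34.6 and 37.6 CPM in dKO, 32.3, 29.7 and 29.6 in Usp21 KO and 32.6, 32.8 and 34.9 in WT. All dKO libraries were above all Usp21 KO libraries, and all Usp21 KO libraries were just below WT (log2 fold change 0.21 ± 0.08, adjusted p = 0.132 for dKO against Usp21 KO, log2 fold change -0.13 ± 0.08, adjusted p = 0.577 for Usp21 KO against WT). Psmd14, the JAMM metalloprotease of the proteasome lid and not one of the 61 genes, had 94.4, 93.4 and 96.0 CPM in dKO, 77.7, 79.4 and 80.0 in Usp21 KO and 95.4, 92.6 and 88.8 in WT. It rose in dKO against Usp21 KO (log2 fold change 0.26 ± 0.06, adjusted p = 0.0303), where Usp21 KO lay below both other groups, while dKO overlapped WT (log2 fold change 0.04 ± 0.06, adjusted p = 0.745).

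The 12 enzymes of T cell receptor, NF-kB and interferon signalling gave 0 passing genes in all 3 comparisons. Cyld (ENSMUSG00000036712, mm10 chromosome 8, 88697028 to 88751945), which removes K63-linked and linear chains from NF-kB pathway proteins, had 272, 277 and 309.5 CPM in dKO, 317, 299 and 316 in Usp21 KO and 302, 318 and 302 in WT. Its groups overlapped in every comparison, and its 95% intervals were narrow, at -0.14 to 0.17 for Usp21 KO against WT (log2 fold change 0.01 ± 0.07, adjusted p = 0.961) and -0.25 to 0.05 for dKO against WT (log2 fold change -0.10 ± 0.07, adjusted p = 0.409). Usp18, which removes the ubiquitin-like protein ISG15 and restrains interferon receptor signalling, had 41.0, 40.2 and 45.2 CPM in dKO, 43.6, 13.9 and 39.8 in Usp21 KO and 44.5, 48.1 and 46.3 in WT. The second Usp21 KO library was far below the other 8, and no comparison passed (log2 fold change -0.51 ± 0.35, adjusted p = 0.637 for Usp21 KO against WT). The summed level of 16 interferon-stimulated genes in that library was 1082 CPM, against 1137 and 1108 CPM in the other Usp21 KO libraries, the lowest of the group by a small margin.

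Deubiquitinases of the cell cycle and DNA repair gave 0 passing genes of 6 tested in each comparison, beside the 20 of 24 cell cycle genes that were higher in dKO than in WT. Usp1, which acts on FANCD2 and PCNA, had 75.2, 69.8 and 78.2 CPM in dKO, 71.9, 75.2 and 67.9 in Usp21 KO and 69.1, 67.6 and 70.0 in WT. Its groups overlapped in every comparison (log2 fold change 0.11 ± 0.07, adjusted p = 0.350 for dKO against WT, 95% interval -0.03 to 0.26). Usp37, which acts on cyclin A, had 42.8, 42.9 and 52.4 CPM in dKO, 38.6, 42.4 and 49.0 in Usp21 KO and 45.4, 39.5 and 45.8 in WT, also with overlap (log2 fold change 0.08 ± 0.11, adjusted p = 0.718 for dKO against WT). The 9 tested genes of the p53 and MDM2 axis, the 6 of the endosome, endoplasmic reticulum and mitochondria, and the free-chain enzymes Usp5 and Uchl3 gave 0 passing genes in each comparison. Of the p53 and MDM2 group, Usp2 was low and variable, at 1.69, 2.30 and 1.44 CPM in dKO, 3.07, 1.86 and 2.87 in Usp21 KO and 3.29, 2.03 and 2.98 in WT (log2 fold change -0.62 ± 0.30, adjusted p = 0.248 for dKO against WT).

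Of 40 tested genes of the wider ubiquitin system, 0 passed in Usp21 KO against WT, 1 in dKO against WT and 1 in dKO against Usp21 KO. With all-gene shares of 0.0133%, 5.78% and 4.9%, these counts show nothing particular to the lists. Of 7 other OTU and UCH family genes, 0 passed in any comparison. Their summed level was uneven within groups, at 791, 2272 and 751 CPM in the WT libraries. It was 1242, 831 and 673 CPM in Usp21 KO and 672, 873 and 630 CPM in dKO. The tests were run gene by gene, so the high sum of WT replicate 2 can widen the spread only of the genes that carry it. The cause of that high sum was not tested. The smallest p of the 7 belonged to Vcpip1, an OTU enzyme that works with the ATPase p97, with 108, 107 and 121 CPM in dKO, 136, 116 and 131 in Usp21 KO and 136, 154 and 129.9 in WT (log2 fold change -0.31 ± 0.09, adjusted p = 0.0670 for dKO against WT). Of 18 tested deubiquitinases of the JAMM, Josephin, MINDY and ZUP1 families, Psmd14 was the single gene to pass, in dKO against Usp21 KO. Eif3h, a translation initiation factor subunit with a JAMM fold, had 303, 275 and 274 CPM in dKO, 249, 259 and 262 in Usp21 KO and 344, 319 and 320.2 in WT without passing (log2 fold change -0.35 ± 0.07, adjusted p = 0.204 for Usp21 KO against WT). Of 9 tested deubiquitinase partners, which include activating WD-repeat proteins, 0 passed. Spata2, which binds Cyld, had 55.6, 50.4 and 54.7 CPM in dKO, 64.4, 71.2 and 57.7 in Usp21 KO and 56.4, 51.05 and 59.4 in WT and did not pass (log2 fold change -0.26 ± 0.09, adjusted p = 0.113 for dKO against Usp21 KO). Of 6 ubiquitin and E1 enzyme genes, Ubb, which encodes a polyubiquitin precursor, had 184, 181 and 175 CPM in dKO, 221, 214 and 189 in Usp21 KO and 225, 264 and 224 in WT. It fell in dKO against WT (log2 fold change -0.40 ± 0.08, adjusted p = 0.0227), with all dKO libraries below all WT libraries, and the other comparisons did not pass.

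As a whole, the deubiquitinase genes took a similar part of every library. All 61 genes made up 0.507%, 0.515% and 0.536% of the counts in dKO, 0.524%, 0.481% and 0.524% in Usp21 KO and 0.509%, 0.526% and 0.505% in WT, and these shares overlap. In TMM-scaled levels the 60 genes other than Usp21 summed to 4847 to 5089 CPM in dKO, 4829.5 to 5401 CPM in Usp21 KO and 5089.6 to 5398 CPM in WT libraries, where dKO lay just below WT. The order of dKO and WT therefore depends on the scaling. Set against the mean of the WT libraries gene by gene, the median log2 ratio of the 51 tested genes other than Usp21 was -0.05 to 0.01 in the dKO libraries, between -0.06 and 0.06 in the Usp21 KO libraries and between -0.02 and 0.04 in the WT libraries, which enter their own mean. The second Usp21 KO library was over 1.5-fold above that mean for Uchl4 and Usp20, and over 1.5-fold below it for Otud1, Usp18 and Usp24. The other Usp21 KO libraries passed this line for Uchl4 alone, and the dKO libraries for Otud1, Usp2, Usp3 and Uchl4 in 1 or more libraries. That library also had the highest summed cell cycle level of its group, at 1679 CPM against 1123 and 1179 CPM. Without it, dKO against WT gave 1 higher (Usp5) and 5 lower (Usp21, Usp3, Otud1, Otud5 and Usp24), and dKO against Usp21 KO gave 2 higher (Usp14 and Uchl3) and 5 lower (Usp3, Usp7, Otud1, Usp24 and Usp36). These fits called 15.1% and 14.1% of all tested genes, against 11.5% and 13.5% of the tested deubiquitinase genes, so neither count exceeds its background.

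**Figure D4:**
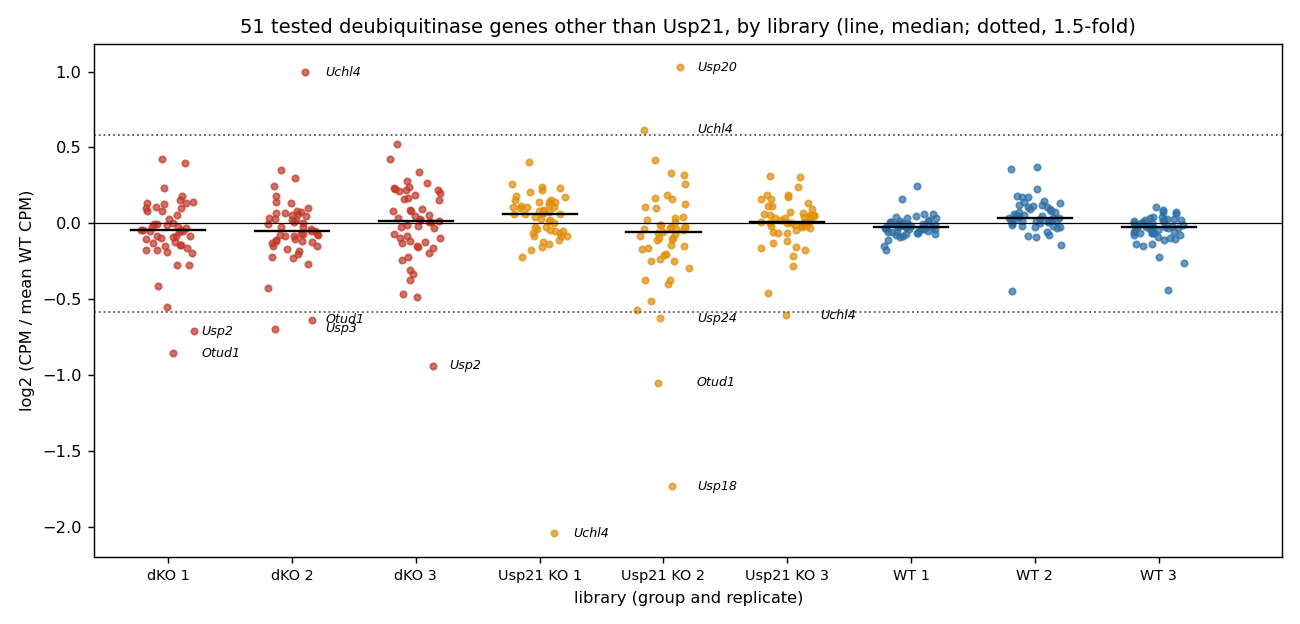
Log2 ratio of each library's CPM to the mean WT CPM for the 51 tested deubiquitinase genes other than Usp21, by library, with black lines at the median and dotted lines at 1.5-fold. Genes past the dotted lines are named, and the second Usp21 KO library has 5 of them, the most of any library. The WT libraries enter the mean they are set against.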

How the data were processed

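RNA of sorted spleen Treg cells was counted per gene in 9 libraries. The table the authors deposited holds raw whole-number counts per Ensembl gene, 1 column per library, without normalization. Per the submitters' processing notes, the tools were cutadapt 1.13, STAR, HTSeq 0.6.1p1 and DESeq2 1.14.1 and the build mm10. Their order, the annotation and the strand setting are not given in the sources used here.

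The counts were tested with edgeR 4.0.16 (R 4.3.3), after filterByExpr and TMM scaling of library sizes. The comparisons came from a robust quasi-likelihood fit of group alone to the 9 libraries. P-values were Benjamini-Hochberg adjusted over all 14994 tested genes. SE is the log2 fold change divided by the square root of F, and 95% intervals use the fit's t distribution and are approximate. CPM came from TMM-scaled library sizes, and exon lengths and coordinates from GENCODE M21. Alternatives were median-ratio size factors, library totals, other filters, DESeq2 1.42.0, limma 3.58.1 voom, the replicate block, single comparisons and each library left out. The procedure was tested on simulated counts, with changes set in genes drawn from all tested genes. In Usp21 KO against WT it recovered 26.9% of 67 changes of 1.5-fold and 58.2% of 67 changes of 2-fold. Only 2 genes passed there in the real data, fewer than in the simulation. The adjustment was therefore stricter in the real data, and recovery there may be lower. Recovery was 35.8% and 70.1% in dKO against WT, and 26.9% and 52.2% in dKO against Usp21 KO. A gene that did not pass is therefore not shown to be unchanged. Recovery for the deubiquitinase genes alone was not measured.

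Replicate numbers come from the sample titles. Deviations of same-numbered libraries correlated at 0.164, 0.326 and 0.130 between dKO and WT. They correlated at -0.303, -0.259 and 0.183 between Usp21 KO and WT, and at -0.120, -0.134 and 0.107 between dKO and Usp21 KO. Differently numbered libraries ranged from -0.249 to 0.151 between dKO and WT, and from -0.417 to 0.512 between Usp21 KO and WT. Between dKO and Usp21 KO they ranged from -0.203 to 0.287. These values do not settle whether equal numbers mark pairs, and the main fit holds no block. No library duplicated another, since chi-square per degree of freedom was at least 5.00 for every pair.

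The members, gene lists and named genes were chosen with earlier results of these data known. Named genes were Usp21, Usp3, Usp14 and Cyld, every member that passed, the 6 members with the smallest p in each comparison, the 5 highest and 5 lowest levels per kb, the untested members, and from each list the genes that passed or had the smallest p. Further members (among them Usp1, Usp37, Usp2 and Usp16) and Thoc1 were named after their values were seen. A planned choice by protein similarity to Usp21 was not made.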

Additional observations from a re-analysis of the deposited data

How the results depend on the processing

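The fall of Usp21 passed in dKO against WT in all 16 alternatives and in Usp21 KO against WT in 14 of 15, the exception being the 6 libraries of that comparison with the replicate block (adjusted p = 0.246, edgeR), where 0 genes were lower. Usp3 in dKO against WT stayed lower in all 16 alternatives and passed in 10. In dKO against WT, 2 genes were higher with library totals, 1 with the 6 libraries alone and 2 with those libraries and the replicate block, and 4 and 6 were lower in the fits of 6 libraries without and with the block. Of all tested genes, these 3 fits called 6.96%, 15.7% and 20.1%. DESeq2 gave 0 higher and 3 lower (Usp21, Usp3 and Otud1) in dKO against WT, with 5.22% of all tested genes called. Otud1 passed there in 4 of 16 alternatives. Leaving out 1 library gave 0 to 1 higher and 1 to 5 lower. In dKO against Usp21 KO, 4 genes were higher with library totals and 2 with DESeq2 (6.24% and 5.55% of all tested genes called), and 0 with no low-count filter, limma voom, the replicate block, the 6 libraries alone or both of these together. There, 2 genes were lower with DESeq2 (Usp35 and Usp4), and leaving out 1 library gave 0 to 2 higher and 0 to 5 lower. Library totals shifted the all-gene median log2 fold change by 0.10 in dKO against WT and by 0.09 in dKO against Usp21 KO. Cyld in Usp21 KO against WT changed sign without Usp21 KO replicate 1, at -0.0013, and was 0.039 without WT replicate 2, against 0.01 with all libraries. The cause of these moves was not tested. The replicate block over 9 libraries moved no other count. The block with 6 libraries, and the fit of dKO against WT without the second Usp21 KO library, were chosen after seeing the data. With 3 libraries a group, exact permutation of a single gene cannot give a p below 0.1, so all calls rest on the spread shared across genes.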
